A study of Mus musculus with 2 samples.

Results

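The name developmental muscle spots refers to how spots were chosen and not to the makeup of each. Such spots lie in the skin section of the IMQ-treated S1pr2fl/fl K14-Cre mouse and held transcripts of genes that immature muscle fibres make. They were chosen by their own counts: a spot had to hold at least 500 UMIs (unique molecular identifiers, the tags of single captured molecules) and at least 3 summed UMIs of Myh3 (ENSMUSG00000020908), Myh8 (ENSMUSG00000055775), Mymk (ENSMUSG00000009214) and Tnnt2 (ENSMUSG00000026414). The rule gave 59 of the 947 spots of that section with at least 500 UMIs, and both sections of the series together had 2263 spots over tissue. The measured levels of these 4 genes are therefore a description of the choice and not a result.

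Skin was taken from 1 mouse of each genotype after 7 daily applications of 62.5 mg of 5% imiquimod (IMQ) cream, a TLR7 ligand that induces psoriasis-like inflammation, to back skin depilated before the treatment. The mice were 8 weeks old when the experiment began. Both carried floxed S1pr2 alleles, and the S1pr2fl/fl K14-Cre mouse also carried Cre under the keratin 14 promoter, which is active in keratinocytes. Fixed, paraffin-embedded tissue was probed with Visium CytAssist, in which transcripts are captured at barcoded spots of a slide that can each hold several cells or fibres. The section of the S1pr2fl/fl K14-Cre mouse held 2845826 UMIs and that of the S1pr2fl/fl mouse 5315351. Because each genotype is 1 section, no test of any difference was possible, no p-value is given, and spots of a section are not replicates. Intervals in parentheses are 95% intervals for counting error only, and fewer fibres in a spot cannot be told apart from less RNA per fibre.

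Mouse back skin rests on a thin sheet of striated muscle, the panniculus carnosus, which is mostly made of fast fibres. A growing or regenerating fibre forms when myoblasts fuse, and it first makes embryonic and perinatal forms of the contractile proteins, which give way to the adult fast or slow forms as the fibre matures. Myh3 encodes the embryonic and Myh8 the perinatal myosin heavy chain, Mymk the membrane protein myomaker that lets myoblasts fuse, and Tnnt2 the cardiac troponin T that immature skeletal muscle also makes. Satellite cells, the resident stem cells of muscle, supply the myoblasts, while macrophages and fibroblasts of the surrounding matrix accompany repair.

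Myh3 and Myh8 lie in 1 cluster of myosin heavy chain genes with the adult fast gene Myh4. In RefSeq on GRCm38.p6 (the submitters' processing notes name the same build as mm10), Myh3 is at chr11:67078273-67102291, Myh4 at chr11:67237812-67260447 and Myh8 at chr11:67277124-67308634, all on the plus strand. The windows just before the start of these 3 genes are shown because Myh3 and Myh8 helped choose the developmental muscle spots and Myh4 the fast muscle spots they are compared with: chr11:67078050-67078272, chr11:67276874-67277123 and chr11:67237562-67237811. Capitals mark the E-box CANNTG, the letters that myogenic regulators such as MyoD and myogenin can bind. A match to this pattern on 1 strand is also a match on the other, though the middle letters can differ.
Myh3: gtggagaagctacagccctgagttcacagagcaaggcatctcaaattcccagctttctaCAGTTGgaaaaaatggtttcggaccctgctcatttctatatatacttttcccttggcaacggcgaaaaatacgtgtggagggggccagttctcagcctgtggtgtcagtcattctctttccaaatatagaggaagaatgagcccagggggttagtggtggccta
Myh8: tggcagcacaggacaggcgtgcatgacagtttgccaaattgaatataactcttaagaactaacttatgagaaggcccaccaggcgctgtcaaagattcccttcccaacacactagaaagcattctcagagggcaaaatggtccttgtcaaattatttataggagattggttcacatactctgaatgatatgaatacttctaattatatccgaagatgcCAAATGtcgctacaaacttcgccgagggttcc
Myh4: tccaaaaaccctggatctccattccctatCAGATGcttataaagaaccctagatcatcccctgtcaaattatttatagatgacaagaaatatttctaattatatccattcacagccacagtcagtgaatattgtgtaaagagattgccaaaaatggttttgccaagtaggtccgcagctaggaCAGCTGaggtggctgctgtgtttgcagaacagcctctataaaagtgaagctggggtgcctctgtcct
The Myh3 and Myh8 windows each held 1 E-box and the Myh4 window 2. Of 32851 promoter windows in RefSeq, 66.2% held at least 1, so that the letters alone set none of these genes apart. The longest run shared by the Myh8 and Myh4 windows was 17 bases, tgtcaaattatttatag, which was in 2 of the 32851 windows. A match is a description of the letters and not a binding site. Coding sequences of these myosins are closely alike, and how far the probes keep them apart was not analysed here.

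The spots were deeper than the rest of the section. Their UMIs per spot ran from 1193 over a median of 4851 to 22773, and the median number of detected genes was 1986. Against them stood 2 sets of spots with at least 500 UMIs. The 100 fast muscle spots were selected on the highest share of UMIs of Acta1, Ckm, Myh4 and Mylpf, genes of mature fast fibres, among the remaining spots, and had a median of 2695.5 UMIs and 946 genes. The 788 other spots had a median of 2292 UMIs and 1048.5 genes. A minimum count favours deep spots: 87 of the other spots and 16 of the fast muscle spots had at least 4851 UMIs, and 67 and 11 of these held no UMI of the 4 choosing genes. Levels are given as CPM, UMIs per 1000000 UMIs of the same set of spots. A background came from 1226 genes of olfactory, vomeronasal, taste and trace amine receptors: a mean of 4.36 CPM per gene in the developmental muscle spots, 1.44 in the fast muscle spots and 6.84 in the other spots.

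Among the choosing genes, Myh8 was the most abundant, with 424 UMIs in 47 of the 59 spots. Myh3 had 191 UMIs in 35 spots, Tnnt2 139 in 29 and Mymk 49 in 20. The 100 fast muscle spots held 7 UMIs of Myh3, 4 of Myh8 and 0 of Mymk and Tnnt2, and the 788 other spots 21, 61, 15 and 11. Together the 59 spots held 803 of the section's 922 UMIs of the 4 genes (87.1%). The lowest sum per spot was 3, the median 5 and the highest 145, followed by 93 and 74. The 10 highest spots held 525 of the 803 UMIs (65.4%), so that the totals lean on few spots. Just inside the threshold were 17 spots with 3 UMIs, and just outside it 28 spots with 2, at median depths of 2659 and 2833.5 UMIs. Of these, 9 of the 17 and 14 of the 28 bordered on another member.

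The 4 genes met in part of the chosen spots. All 4 were present in 10 spots, 3 in 12, 2 in 18 and 1 in 19, counts that describe the choice. When spots were chosen by 3 of the genes only, with at least 3 UMIs, the gene left out did not enter that choice. All spots so chosen were members, and the 4 genes had been taken as a set with earlier results of these data known. Of 46 spots chosen without Myh3, 22 (47.8%; Clopper-Pearson interval 32.9 to 63.1) held it, against 3.37% of the other spots, at a CPM ratio of 23.5 (16.8 to 33.5). Of 37 spots chosen without Myh8, 25 (67.6%; 50.2 to 82.0) held it, against 8.27%, at a ratio of 22.7 (18.5 to 28.0). Mymk was in 15 of 54 spots (27.8%) against 2.02%, a ratio of 6.80 (4.02 to 11.5), and Tnnt2 in 22 of 52 (42.3%) against 2.01%, a ratio of 23.5 (15.7 to 36.0). Each of the 4 genes was more frequent in these spots than in the other spots, which describes the chosen set and is not separate support for it. The shares of spots were not evened for depth.

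**Figure D1:**
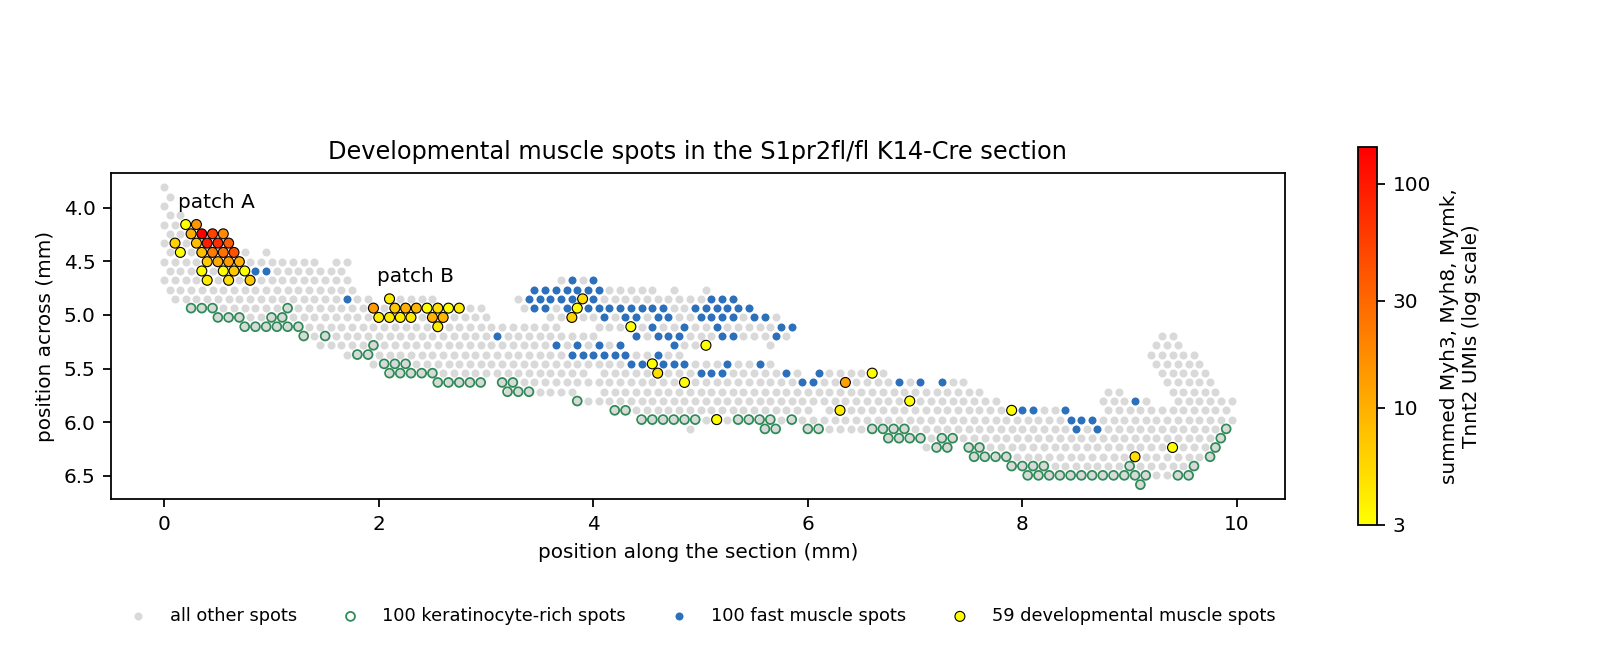
Position of the 947 spots of the S1pr2fl/fl K14-Cre section in mm on the nominal grid of the array; filled circles with a black rim are the 59 developmental muscle spots, coloured by their summed UMIs of Myh3, Myh8, Mymk and Tnnt2 on a log scale, blue circles the 100 fast muscle spots, green rings the 100 keratinocyte-rich spots and grey circles the other spots. Patch A lies between 0.2 and 0.8 mm and patch B between 1.95 and 2.75 mm along the section, while most fast muscle spots lie further along it.

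In the section, the spots formed 16 connected groups, and 2 of them held most spots. The largest, patch A, had 25 spots within 0.6 mm by 0.52 mm and lay between 0.2 and 0.8 mm along a section that ran from 0 to 9.95 mm, near one of its ends. Patch B had 16 spots within 0.8 mm by 0.26 mm, between 1.95 and 2.75 mm. The other 18 spots, 11 of them with no neighbour in the set, were spread from 0.1 to 9.4 mm. Patch A held 628 of the 803 UMIs of the choosing genes, with a median of 10 per spot and depths around a median of 9424 UMIs. Patch B held 98, with a median of 4, and the 18 scattered spots 77, with a median of 3. All of the 10 spots with the highest sums were in patch A, as the map of the section shows.

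The spot with the highest sum held 53 UMIs of Myh3, 64 of Myh8, 3 of Mymk and 25 of Tnnt2 among 15942. It also held 69 UMIs of Myl4, 41 of Tnni1, 63 of Tnc, 296 of Col1a1 and 399 of Acta1, transcripts of immature fibres, matrix and mature fibres within 1 spot. The next held 93 UMIs of the choosing genes among 14275, with 37 of Myl4, 112 of Tnc, 355 of Col1a1 and 329 of Acta1. A different balance stood in the spot with the sum ranked 5, with 42 UMIs of the choosing genes among 17138 but 6 of Myl4, 9 of Tnc and 964 of Acta1.

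Measured from the epidermis, the spots lay nearer than the fast muscle spots at the median. The distance to the nearest of the 100 spots richest in keratinocyte transcripts was 5 grid steps at the median (0 to 10, with a nominal step of 100 μm), against 9 (4 to 13) for fast muscle spots and 3 (0 to 14) for other spots. These ranges overlap widely. The nearest fast muscle spot was 5 steps away at the median (1 to 9), and 1 developmental muscle spot was itself among the keratinocyte-rich spots.

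Genes were compared where both sets together held at least 50 UMIs. Against the fast muscle spots, 2411 genes qualified, of which 554 (23%) were at least 2-fold higher and 241 (10%) at most 0.5-fold in the developmental muscle spots. The median gene lay at a log2 ratio of 0.22. Against the other spots, 9159 genes qualified, 540 (5.9%) were at least 2-fold higher and 1563 (17.1%) at most 0.5-fold, and the median gene lay at -0.12. These shares are what any list of genes has to be read against.

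Other genes of developing and regenerating muscle, none of which chose the spots, were more abundant in them than in the other spots, while the difference of their sum from the fast muscle spots rested on patch A. Of 13 such genes that qualified against the other spots, 12 were at least 2-fold higher and 0 lower (median log2 ratio 2.61), and of 10 against the fast muscle spots, 5 were higher and 0 lower (median 1.23). Their summed level was 4498 CPM in the developmental muscle spots, 3185 in the fast muscle spots and 1136 in the other spots. Per spot, the sum ran from 0 over a median of 3168 to 15151.5 CPM in the developmental muscle spots and from 0 over 2828 to 10944 in the fast muscle spots, and 45 of the 100 fast muscle spots lay above the median of the former. Its log2 ratio over the fast muscle spots was 0.50 (0.38 to 0.61) and, without patch A, 0.032 (-0.14 to 0.20). The largest part of the sum came from Csrp3, a LIM protein of the Z-disc that mature fibres also make, with 1371 CPM against 1993 in the fast muscle spots.

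Myl4, the embryonic and atrial myosin light chain, had the largest ratio of the list over the other spots. Per spot it ran from 0 over a median of 212 to 4328 CPM in the developmental muscle spots, from 0 over 0 to 719 in the fast muscle spots and from 0 over 0 to 1821 in the other spots. The ranges overlapped, and 17 of the 59 spots exceeded every fast muscle spot. It was present in 33 of 59 spots (55.9%; 42.4 to 68.8), 10 of 100 and 65 of 788 (8.25%). After every spot was thinned at random to 500 UMIs, the shares were 22.0% (12.3 to 34.7), 4% and 1.52%, while a receptor gene at the 95th percentile reached 1.69%, 1% and 0.761%. Summed, Myl4 had 877 CPM (328 UMIs) against 50.9 and 53.0, 17.2-fold above the fast muscle spots (log2 4.11, 3.36 to 4.96) and 16.5-fold above the other spots (4.05, 3.74 to 4.37). Patch A held 284 of these UMIs, and without it the log2 ratios were 2.81 (1.94 to 3.76) and 2.75 (2.22 to 3.26).

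Further genes of immature fibres and of the newly innervated or uninnervated membrane followed. Mest, an imprinted gene active in embryonic tissue, had 53 UMIs against 1 and 27, a log2 ratio of 3.51 (2.81 to 4.23) over the other spots. A receptor gene at the 95th percentile had 30 UMIs in the other spots, so this ratio is against a level not set apart from background. Nes, which encodes the intermediate filament nestin of immature muscle, had 232 CPM against 54.3 and 29.1. Chrng, the fetal subunit of the acetylcholine receptor, had 31 UMIs in the developmental muscle spots, 0 in the fast muscle spots and 21 in the other spots. With 3 counts allowed for that 0, it was at least 8.13-fold higher than in the fast muscle spots, and its log2 ratio over the other spots was 3.10 (2.25 to 3.97). The 21 UMIs of Chrng in the other spots were also fewer than the 30 of such a receptor gene. Chrna1, the alpha subunit that fetal and adult receptors share, had log2 ratios of 1.53 and 2.06. Igf2, a growth factor of developing muscle, had 131 CPM against 34.0 and 18.0. Ncam1, the cell adhesion molecule of regenerating and denervated fibres, had 150 CPM against 78.1 and 24.5. The fusion peptide myomixer, encoded by Mymx, gave 3 UMIs, fewer than the 5.75 of a receptor gene at the 95th percentile, and Dlk1, an imprinted inhibitor of fat formation, gave 6. Mybph, a myosin-binding protein, was high in both kinds of muscle spot, with 941 CPM against 652 and 152. Without patch A, Mest, Nes, Chrng, Igf2 and Ncam1 had log2 ratios of 1.97, 2.25, 2.07, 1.85 and 2.11 over the other spots, with intervals above 0, while Chrna1 had 1.01 (-0.36 to 2.14). Over the fast muscle spots, those of Chrna1, Igf2 and Ncam1 had intervals that held 0, and that of Mybph turned from 0.53 to -0.44 (-0.89 to -0.02).

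**Figure D2:**
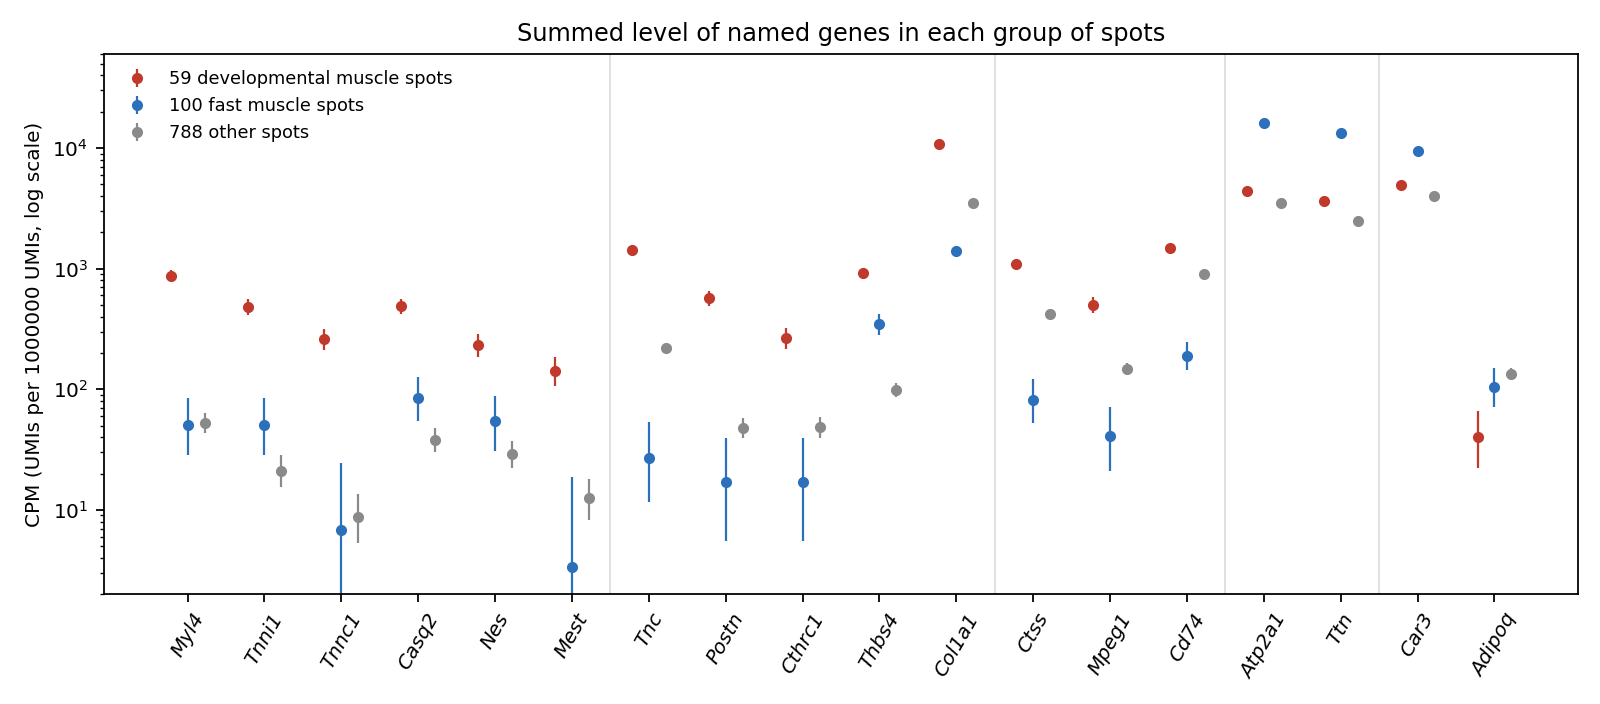
Summed level of 18 genes in CPM on a log axis; red points are the 59 developmental muscle spots, blue points the 100 fast muscle spots and grey points the 788 other spots, with 95% Poisson intervals for counting error as bars, and grey lines divide genes of muscle isoforms, matrix, immune cells, mature fibres and fat. Myl4 stands at 877 CPM against 50.9 and 53.0, Tnc at 1422 against 27.2 and 221, and Atp2a1 at 4378 against 16114 and 3498.

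The measured genes of satellite cells and of the transcription factors that drive myogenesis gave few counts. Of the 20 genes listed, 18 were measured, and Myod1, which encodes MyoD, and Cdh15 were not. Pax7, the defining factor of satellite cells, had 2 UMIs in the developmental muscle spots, 5 in the fast muscle spots and 25 in the other spots. These counts are too few to order the 3 sets. Pax3 and Myf5 were at 0 among 374142 UMIs, which with 3 counts allows up to 8.02 CPM. Myog, the factor of differentiating myoblasts, had 34 UMIs in 18 spots, 90.9 CPM against 54.3 and 36.4. Its log2 ratio was 0.74 (-0.15 to 1.70) over the fast muscle spots, an interval that holds 0, and 1.32 (0.69 to 1.92) over the other spots. Patch A held 27 of the 34 UMIs. Myog in patch B (22.9 to 165 CPM) and in the scattered spots (4.63 to 138 CPM) had counting intervals that held the level of the other spots. Myf6, the factor of mature fibres, had 176 CPM against 255 and 75.6. Vcam1, an adhesion molecule of activated satellite cells and of inflamed vessels, had 12 UMIs against 0 and 16. Of the list, 1 of 5 qualifying genes was at least 2-fold higher than in the fast muscle spots and 0 lower, and 3 of 9 were higher and 3 lower than in the other spots. Its summed level of 1000 CPM lay between 730 in the fast muscle spots and 1288 in the other spots, but the most abundant gene was Sdc4, a syndecan of many cell types, with 267 CPM against 136 and 797.

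Slow troponin isoforms and Casq2 were higher, while slow myosin was not. Tnni1, the slow skeletal troponin I that fetal fibres also make, had 481 CPM against 50.9 and 21.2 (log2 3.24 and 4.50) and was present in 34 of the 59 spots, 9 of the 100 and 19 of the 788. Tnnc1, troponin C of slow and cardiac muscle, had 97 UMIs against 2 and 19, a log2 ratio of 4.89 (4.17 to 5.68) over the other spots, the highest of all genes with at least 100 UMIs in both sets together, the choosing genes apart. A receptor gene at the 95th percentile had 2 and 30 UMIs in these references, so the ratios of Tnnc1 are against levels not set apart from background. Over the other spots its log2 ratio ranged from 3.47 to 7.05 in the alternatives run. Casq2, a calcium store protein of cardiac and slow muscle, had 489 CPM against 84.9 and 38.3, and Tnnt1, slow troponin T, 366 against 156 and 43.4. Without patch A, the log2 ratios of Tnni1, Tnnc1 and Casq2 were 2.11, 3.84 and 1.26 over the fast muscle spots and 3.37, 3.47 and 2.41 over the other spots, and that of Tnnt1 over the fast muscle spots was 0.54 (-0.19 to 1.25). In contrast, the slow myosin gene Myh7 had 7 UMIs, 18.7 CPM against 34.0 in the fast muscle spots, and Myl2 and Myl3, light chains of slow and cardiac muscle, had 5 and 1. Of 8 qualifying slow fibre genes, 5 were at least 2-fold higher and 1 lower than in the fast muscle spots, and 6 were higher and 0 lower than in the other spots. Of the cardiac list, which held Nppa, Nppb, Myh6 and Tnni3, no gene reached 50 UMIs in either comparison, and the 8 genes together had 53.5 CPM against 40.8 and 70.1.

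The sum of adult fast genes lay below that of the fast muscle spots and above that of the other spots. The 4 genes that selected the fast muscle spots summed to 63623 CPM, against 148299 there and 31041 in the other spots, and both gaps are shaped by the selection, which took the spots richest in these genes out of the other spots. Of 18 other adult fast genes, 13 were at most 0.5-fold and 0 higher than in the fast muscle spots, and 4 were at least 2-fold higher and 0 lower than in the other spots. Atp2a1, the calcium pump of fast fibres, had 4378 CPM against 16114, a log2 ratio of -1.88 (-1.96 to -1.80), and Myh1, the adult 2X myosin, 5060 against 7203 (-0.51, -0.60 to -0.42). Ttn, the giant spring protein titin, had 3606 against 13224 CPM. Of 14 qualifying genes for structures of every fibre, 11, Ttn among them, were at most 0.5-fold and 0 higher, while Tpm1, a tropomyosin, had 6190 against 6466 CPM (log2 -0.06, -0.15 to 0.03).

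Among genes with at least 100 UMIs in both sets together, the 15 lowest against the fast muscle spots included Fitm1 (log2 -2.15), Phkg1, Ppp1r3c, Adssl1, Cox6a2, Sar1b, Synm, Atp2a1, Ttn, Bves, Ano5 and Ankrd23 (-1.79). Phkg1 and Ppp1r3c act on glycogen, and Synm encodes an intermediate filament protein of the fibre. Cox6a2, the muscle form of a cytochrome oxidase subunit, had 620 CPM against 2445 in the fast muscle spots and 608 in the other spots.

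The summed level of the neuromuscular junction list differed from that of the fast muscle spots by less than counting error. The list summed to 251 CPM against 289 (log2 -0.20, -0.64 to 0.24) and 115 in the other spots. Chrne, the adult counterpart of Chrng, had 4 UMIs against 3 and 26. Lrp4, the agrin receptor of the fibre, was at 0, which allows up to 8.02 CPM, against 12 UMIs (40.8 CPM, 21.1 to 71.2) in the fast muscle spots. Among genes known from denervated or wasting muscle, Runx1 had 53.5 CPM against 20.4 and 20.8 and Gadd45a 85.5 against 30.6 and 19.4, while the ubiquitin ligase Trim63 had 187 against 244 and Fbxo32 8 UMIs against 9. Of that list, 2 of 7 qualifying genes were at least 2-fold higher and 2 lower than in the fast muscle spots, and 4 of 10 were higher and 2 lower than in the other spots.

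Of the 20 lists plotted, the fibrillar and fibre-associated collagens had the highest ratio over the fast muscle spots. They summed to 42647 CPM against 7498 in the fast muscle spots and 17007 in the other spots, log2 ratios of 2.51 (2.44 to 2.57) and 1.33 (1.30 to 1.35). All 11 qualifying genes of the list were at least 2-fold higher than in the fast muscle spots, and 10 of 11 than in the other spots. Col1a1 had 10844 CPM against 1399 and 3529, and per spot it ran from 0 over 7955 to 26845, against 0 over 1088 to 9339 in the fast muscle spots. The ranges overlapped, with 25 of the 59 spots above every fast muscle spot. Col3a1 had 13118 CPM against 3002 and 6722, and Col5a1, a collagen that starts fibrils, 1048 against 109 and 244. Col12a1, a collagen on the surface of fibrils in tendon and fascia, had 84 UMIs against 0 in the fast muscle spots, at least 22.0-fold higher, and 91 in the other spots (log2 2.42), and 11 of the 84 lay outside patch A (log2 1.09 over the other spots). Col5a1 without patch A had log2 ratios of 2.26 and 1.09, in place of 3.27 and 2.10. Col8a1, which encodes a short-chain collagen, had 86 UMIs against 3 and 76.

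Among genes with at least 100 UMIs in both sets together, the choosing genes apart, the secreted matrix proteins Tnc and Postn had the highest ratios over the fast muscle spots, followed by Myl4. Tnc, which encodes tenascin C of developing and injured tissue, had 532 UMIs against 8 in the fast muscle spots (52.3-fold; log2 5.71, 4.72 to 6.93) and was 6.42-fold above the other spots. Patch A held 464 of these UMIs, and without it the log2 ratios were 4.35 (3.29 to 5.61) and 1.32 (0.93 to 1.69). It was present in 36 of the 59 spots, 3 of the 100 and 214 of the 788. Postn, the periostin gene, had 567 CPM against 17.0 and 48.0 (33.4-fold and 11.8-fold) and was present in 39, 4 and 90 spots. Cthrc1, a secreted protein of activated fibroblasts, had 267 CPM against 17.0 and 48.4. Fn1, fibronectin, had 898 against 173 and 226. Mmp14, a membrane-bound collagenase, had 420 against 54.3 and 205. Without patch A, Postn, Cthrc1 and Mmp14 had log2 ratios of 4.18, 3.11 and 1.96 over the fast muscle spots and 2.69, 1.59 and 0.044 over the other spots, the last with an interval of -0.59 to 0.61. Of this list, 12 of 14 qualifying genes were at least 2-fold higher than in the fast muscle spots and 10 of 16 than in the other spots, with 0 lower in both. Dcn and Lum, the proteoglycans of settled dermis, lay at log2 ratios of -0.56 and 0.07 against the other spots.

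Basement membrane genes, whose products sheathe each fibre, differed less. They summed to 2021 CPM against 1273 and 1586, and 3 of 8 qualifying genes were at least 2-fold higher than in the fast muscle spots. The tendon and myotendinous junction list was high by 1 gene: Thbs4, a thrombospondin of tendon and muscle matrix, held 344 of its 383 UMIs, with 919 CPM against 346 and 98.7. The defining tendon genes Scx and Tnmd had 14 and 3 UMIs. Genes of fibro-adipogenic progenitors and fascia fibroblasts lay near both references, with 1777 CPM against 1603 and 1462, and the progenitor marker Pdgfra had 66.8 CPM against 47.5 and 101. An exception was Mfap5, a microfibril gene of fascia, with 166 CPM against 61.1 and 31.4.

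Fat transcripts were less abundant than in either reference. The adipocyte list summed to 6944 CPM against 13108 in the fast muscle spots (log2 -0.92, -0.99 to -0.84) and 8810 in the other spots (-0.34, -0.40 to -0.28). Its most abundant gene was Car3, a carbonic anhydrase that muscle also makes, with 1836 of the 2598 UMIs. Adipoq, the gene of the adipocyte hormone adiponectin, had 15 UMIs, 40.1 CPM against 105 and 134, and was present in 8 of the 59 spots. Cfd, the adipocyte protease adipsin, had 682 CPM against 1593 and 1941. Of 11 qualifying genes, 7 were at most 0.5-fold and 0 higher compared with the other spots, and 1 of 5 was lower than in the fast muscle spots.

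**Figure D3:**
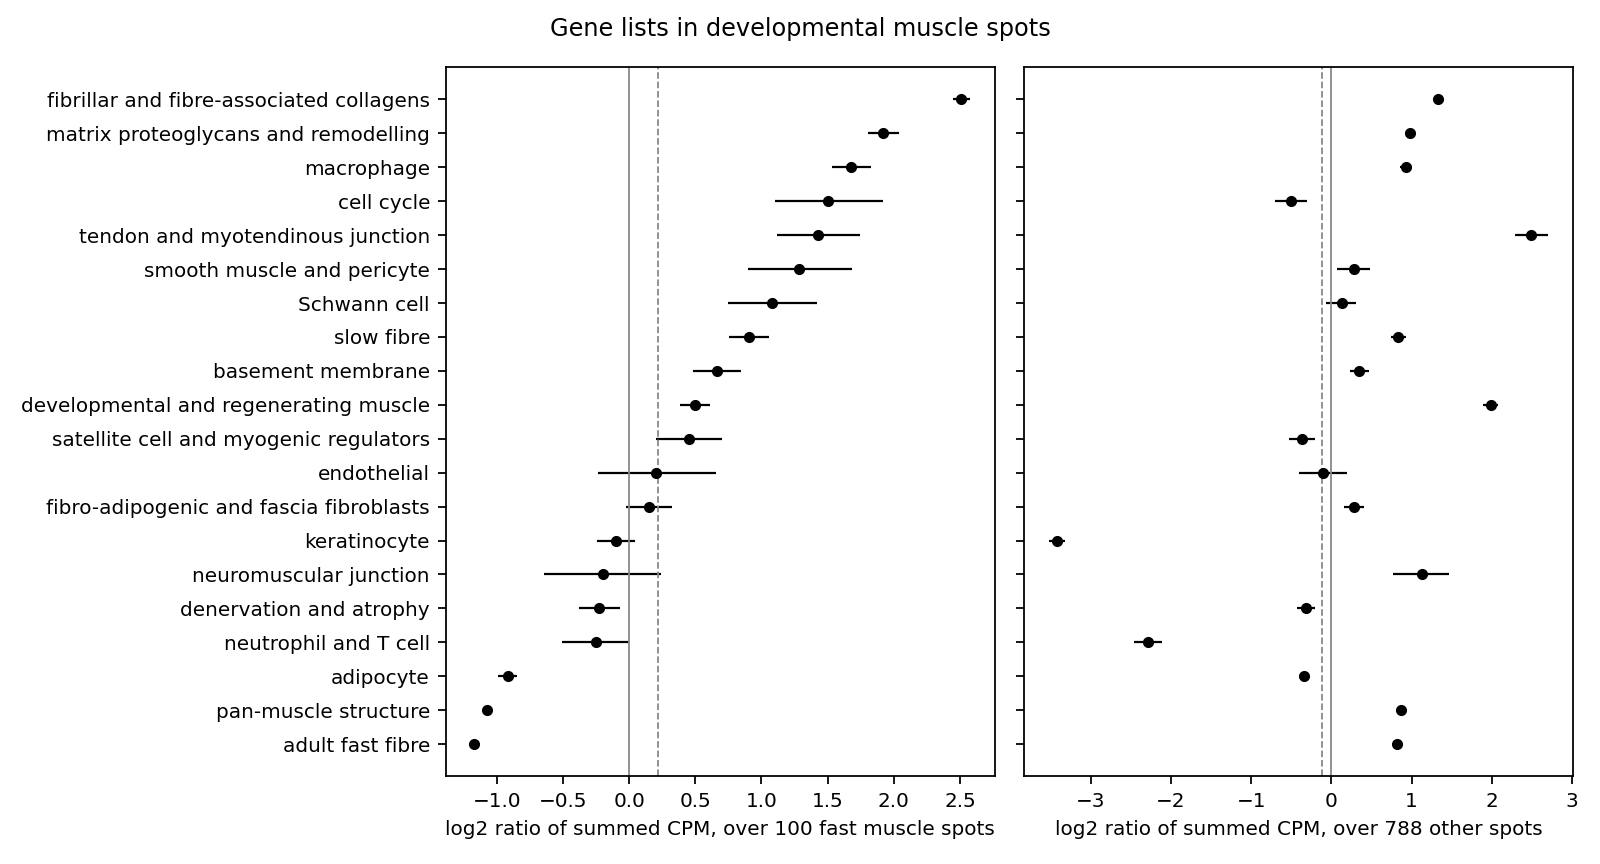
Log2 ratio of the summed CPM of 20 gene lists in the 59 developmental muscle spots over the 100 fast muscle spots (left) and over the 788 other spots (right); points are ratios, bars 95% intervals for counting error, the solid line marks 0 and the dashed line the median of all genes compared (0.22 and -0.12). Fibrillar collagens have the highest ratio over fast muscle spots (2.51) and keratinocyte genes the lowest over other spots (-3.42).

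Macrophage genes were more abundant, and the summed neutrophil and T cell list was not. The macrophage list summed to 5300 CPM against 1654 and 2783, log2 ratios of 1.68 (1.54 to 1.83) and 0.93 (0.86 to 1.00). By place, it had 5415 CPM in patch A and 6623 in patch B. In the 18 scattered spots it had 2961 (2513 to 3466), an interval that held the level of the other spots. Of 8 qualifying genes 6 were at least 2-fold higher than in the fast muscle spots, and of 11, 2 were higher and 1 lower than in the other spots. C1qa, a complement subunit of tissue macrophages, had 1609 CPM against 458 and 726, and Ctss, the lysosomal protease cathepsin S, 1099 against 81.5 and 418. Mpeg1, Itgb2, Ly86 and Cd74, genes of macrophages and other leukocytes, were among the 15 highest over the fast muscle spots, at log2 ratios of 2.95 to 3.62, and without patch A at 2.76 to 2.92. Lyz2 gave 3 UMIs, and the repair-associated macrophage genes Gpnmb and Spp1 gave 4 and 10. The neutrophil and T cell list summed to 730 CPM against 869 and 3560, with 146 of its 273 UMIs from Ptprc. Of 3 qualifying genes, 1 was at least 2-fold higher and 2 lower than in the fast muscle spots. Of 7, 1 was higher and 5 lower than in the other spots. S100a8 and S100a9, the calgranulins of neutrophils and of inflamed keratinocytes, had log2 ratios of -3.79 and -2.92 against the other spots. T cell genes gave few counts: Cd3d had 10 UMIs (26.7 CPM against 27.2 and 24.4) and Cd3e 6 UMIs against 1 and 89, Cd4 had 1, and Cd3g, Cd8a and Trbc2, like Ly6g of neutrophils, were at 0, with the same limit of 8.02 CPM as above.

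Vessel, nerve and dividing-cell genes made up the rest. Endothelial genes summed to 286 CPM against 248 and 307. Smooth muscle and pericyte genes had 612 against 251 and 504, with 107 of the 229 UMIs from Tagln, an actin-binding protein of smooth muscle. Schwann cell genes had 746 against 353 and 683. Cell cycle genes had 625 CPM against 221 in the fast muscle spots (log2 1.50, 1.10 to 1.92) and 888 in the other spots (-0.51, -0.71 to -0.31). S1pr2, the floxed gene, had 14 UMIs against 2 and 38, or 37.4, 6.79 and 17.5 CPM.

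Keratinocyte genes set the lower end against the other spots. All 14 qualifying genes were at most 0.5-fold, and the list had 2283 CPM against 24469 (log2 -3.42, -3.52 to -3.32), close to the 2445 of the fast muscle spots. The lowest was Lor, the cornified envelope protein loricrin, with 2 UMIs against 521 (log2 -5.49, -8.54 to -3.63). Others among the 10 lowest were Gsdma, Sprr2h, Lpo, Grhl3, Rnf225, Alox8, Gjb6 and Tgm5, with 1 to 7 UMIs each. Gsdma encodes an epidermal gasdermin, Sprr2h a small proline-rich protein of the cornified envelope, Grhl3 a transcription factor of the epidermal barrier, Gjb6 a connexin and Tgm5 a transglutaminase. Probes for Sprr2h may share targets with its close relatives. At the upper end stood Tnnc1, Tnni1, Myl4, Casq2, Postn, C1qtnf3, Thbs4, Tnnt1, Nes and Col8a1, the last with a log2 ratio of 2.71 (2.25 to 3.18). C1qtnf3, which encodes a secreted protein of the C1q and TNF family, had 72 UMIs against 3 and 44. Of these, 13 lay outside patch A, with log2 ratios of 3.37 and 2.38 in place of 4.24 and 3.25.

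Patch A, patch B and the scattered spots differed in what accompanied the choosing genes. Myl4 had 1132 CPM (1004 to 1271) in patch A, 593 (427 to 802) in patch B and 38.2 (4.63 to 138, from 2 UMIs) in the 18 scattered spots, the last no higher than in the other spots (53.0). Tnnc1 had 339 and 169 CPM and was at 0 in the scattered spots, and Postn had 693, 438 and 134 CPM. The fibrillar collagens stood at 47223, 41558 and 22179 CPM. Myl4 and Tnnc1, which did not choose the spots, were thus higher in both patches than in the 18 scattered spots. The same order, but with intervals of patch B and the scattered spots that overlap, was that of Tnni1 (610, 311 and 95.5 CPM), Nes (279, 169 and 95.5), Igf2 (163, 70.6 and 57.3), Mybph (1167, 522 and 420) and Myog (108, 70.6 and 38.2). In other values patch B was not above the scattered spots. The developmental list had 5108 CPM in patch A, 2980 (2591 to 3410) in patch B and 3630 (3132 to 4184) in the scattered spots. Casq2 had 630 CPM in patch A, 198 (108 to 332, from 14 UMIs) in patch B and 210 (105 to 376, from 11 UMIs) in the scattered spots. Chrna1, Chrng and Ncam1 had 2, 1 and 6 UMIs in patch B and 5, 4 and 7 in the scattered spots, or 28.2, 14.1 and 84.7 CPM against 95.5, 76.4 and 134, with intervals that overlap for each gene. Thbs4 was present in all 3 sets, with 1056, 635 and 650 CPM. Keratinocyte genes were higher in the scattered spots, with 7393 CPM against 1446 and 1469 and a median per spot of 3032 CPM against 715 and 1320. Without the 1 spot that was among the keratinocyte-rich spots, the scattered spots had 5176 CPM (4569 to 5841). Their adult fast genes were highest, 60175 against 50223 in patch A and 26548 in patch B. Without patch A, the log2 ratio of the developmental list over the other spots was 1.52.

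Patch B differed from patch A in the summed levels of genes of other cell types. Schwann cell genes had 2386 CPM in patch B and 343 in patch A. Endothelial genes had 579 against 207 CPM, smooth muscle and pericyte genes 1186 against 534 and cell cycle genes 1130 against 502. The adipocyte list was lower, 3149 against 7833. Most of its UMIs were of Car3, which muscle also makes, 150 of 223 in patch B and 1433 of 1966 in patch A (2118 and 5710 CPM). Adipoq had 1 and 12 UMIs, and whether the gap is one of fat or of muscle was not tested. Chrng had 104 CPM in patch A, 14.1 (0.358 to 78.7) in patch B and 76.4 (20.8 to 196) in the scattered spots, and Tnc had 1849, 678 and 382.

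**Figure D4:**
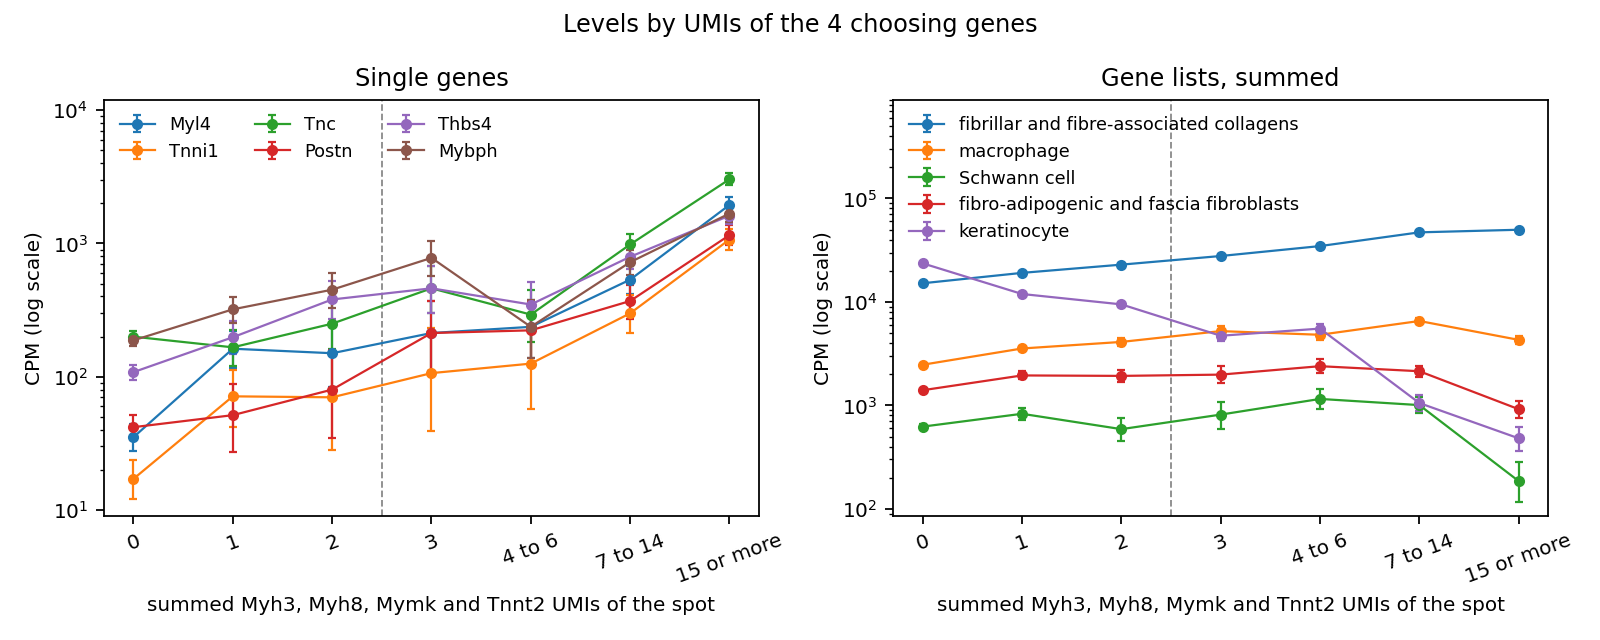
Summed CPM on a log axis by the number of UMIs of the 4 choosing genes in a spot (797 spots with 0, 63 with 1, 28 with 2, 17 with 3, 16 with 4 to 6, 16 with 7 to 14 and 10 with 15 or more), for single genes (left) and gene lists (right); bars are 95% Poisson intervals for counting error and the dashed line is the threshold of the choice. Myl4 goes from 35.1 CPM at 0 UMIs to 1947 at 15 or more, and Schwann cell genes from 623 to 185.

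By the number of UMIs of the choosing genes, Myl4, Tnc and the collagens were highest in the last class, and macrophage and Schwann cell genes were not. Myl4 had 35.1 CPM in the 797 spots with 0, 162 in the 63 spots with 1, 150 with 2, 212 with 3, 237 with 4 to 6, 535 with 7 to 14 and 1947 in the 10 spots with 15 or more. The counting intervals of the spots just outside and just inside the threshold overlapped for this gene. Tnc had 200 CPM at 0 UMIs, 166 at 1, 250 at 2, 460 at 3, 292 at 4 to 6, 983 at 7 to 14 and 3034 at 15 or more. The collagens had 15149, 19090, 22927, 27784, 34657, 47043 and 49850 CPM in the same classes. Macrophage genes reached 6543 CPM at 7 to 14 UMIs and 4299 at 15 or more, and Schwann cell genes 1155 at 4 to 6 and 185 at 15 or more. These classes differ in depth, with medians from 2178 UMIs at 0 to 14072 at 15 or more, and the 10 spots of the last class are all in patch A. The part of depth in these levels was not tested.

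**Figure D5:**
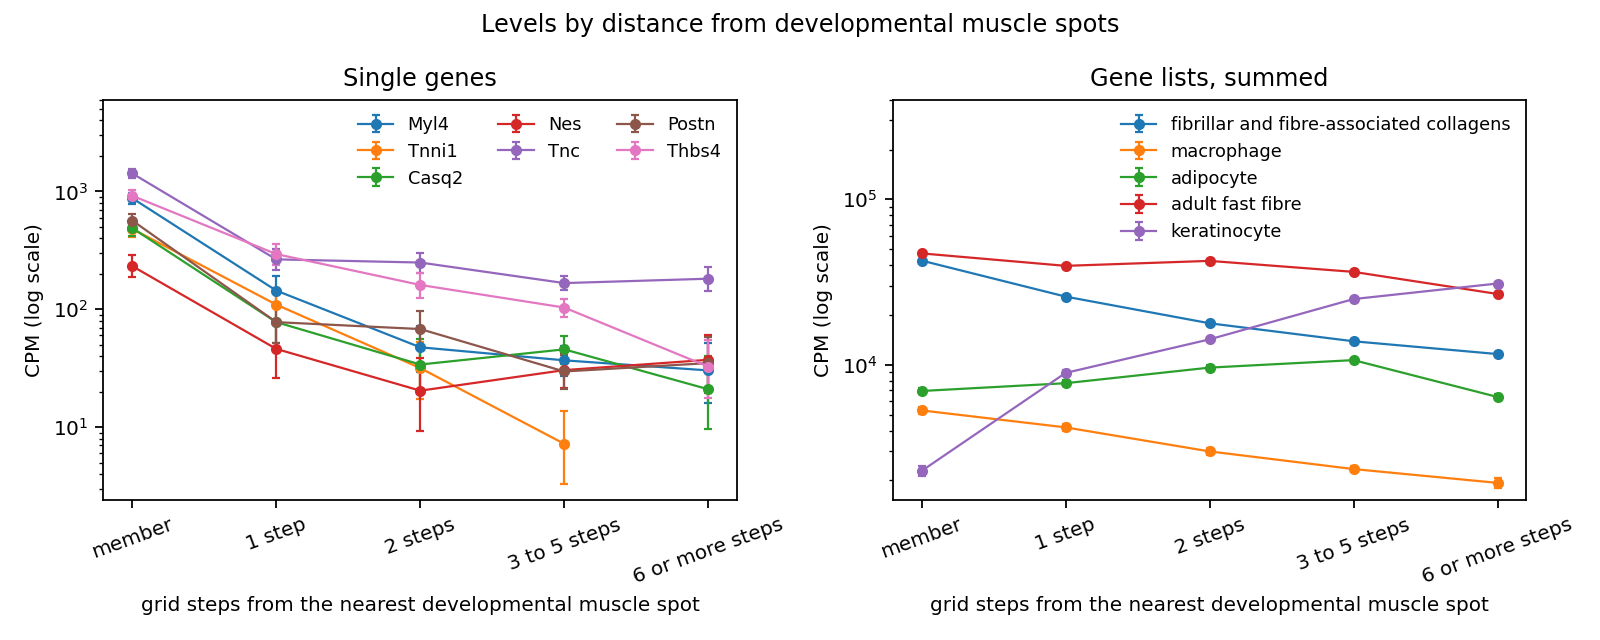
Summed CPM on a log axis by grid distance from the nearest developmental muscle spot (59 members, then 119, 149, 426 and 194 spots), for single genes (left) and gene lists (right); bars are 95% Poisson intervals for counting error, and Tnni1 at 6 or more steps is at 0 and not drawn. Myl4 goes from 877 CPM in the members to 144 at 1 step and 30.3 at 6 or more, while keratinocyte genes go from 2283 to 30993.

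Around the spots, Myl4, Tnni1, Nes and the matrix genes Tnc and Postn were much lower at 1 step than in the members. The collagen and macrophage lists were lower by smaller ratios at that step. So were the developmental list (4498 CPM in the members and 1820 at 1 step) and Myog (90.9 and 49.0). The 119 spots that bordered on a member had 144 CPM of Myl4 (877 in the members), 110 of Tnni1 (481) and 46.1 of Nes (232), and at 2 steps 47.6, 31.7 and 20.4. Tnc had 1422 CPM in the members, 265 at 1 step, 249 at 2 and 167 at 3 to 5, and Postn 567, 77.9, 68.0 and 29.7. Collagens went from 42647 CPM in the members to 25837 at 1 step, 17819 at 2, 13873 at 3 to 5 and 11611 at 6 or more. Macrophage genes went from 5300 over 4185, 2996 and 2343 to 1933. Bordering spots hold by the rule fewer than 3 UMIs of the choosing genes, and RNA that spreads between neighbouring spots cannot be told apart from immature fibres that reach into them.

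In the section of the S1pr2fl/fl mouse, the same rule gave 7 of 1096 spots (0.639%; 0.257 to 1.31) against 59 of 947 (6.23%; 4.78 to 7.96). Intervals of shares of spots take each spot as a separate draw, though 41 of the 59 lie in 2 patches. The rule was set for the S1pr2fl/fl K14-Cre section, and how much muscle each section held was not compared. None of the 7 held more than 5 UMIs of the choosing genes, although their lowest depth was 3966 UMIs, and the largest connected group had 3 spots. The whole section held 91 UMIs of the 4 genes, 17.1 CPM against 324 in the S1pr2fl/fl K14-Cre section. After thinning every spot to 500 UMIs, 10 of 1096 spots (0.912%; 0.438 to 1.67) and 45 of 947 (4.75%; 3.49 to 6.31) held a UMI of these genes. Myl4 followed, with 6.21 CPM (33 UMIs) against 161 (458 UMIs), and so did Tnni1 with 2.63 against 85.4 and Thbs4 with 19.9 against 232. Tnc did not, with 424 CPM against 359, nor did Postn as widely, with 80.9 against 113. Each section is 1 piece of skin from 1 mouse, and patch A and patch B lie at 2 places of 1 section, so the genotype, the mouse and the place of sampling cannot be told apart.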

How the data were processed

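Spatial gene expression was measured by probe capture (Visium CytAssist) in 2 skin sections, 1 per genotype. For each spot over tissue, the deposited files hold whole-number UMI counts, not normalized by the authors, of the genes they list. The file header names Space Ranger 3.0.0, and the submitters' processing notes give the build as mm10. The files list 19465 genes, of which 11 symbols occur more than once and were kept out of the comparisons. The sections shared 357 spot barcodes, which are positions of the array design and not cells.

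Spots with at least 500 UMIs were used. The members, the gene lists and the comparisons were chosen with earlier results of these data known. UMIs were summed over each set of spots and divided by its total (CPM). A gene was compared at 50 UMIs or more over both sets, and called higher at 2-fold or more and lower at 0.5-fold or less. Intervals are exact Poisson for sums, conditional binomial for ratios and Clopper-Pearson for shares, all at 95%, and a count of 0 was taken to allow 3 counts over the set. Doublets do not apply to spots, and no makeup of cell types was estimated. Named genes were the choosing genes, the highest, lowest and most abundant members of each list, and the 15 highest and 15 lowest genes over the fast muscle spots and the 10 highest and 10 lowest over the other spots, at 100 UMIs or more over both sets. Some genes that meet this rule are not reported here. Other list members were named after their values were seen. Alternatives changed the choice of spots, depth, denominator, background and gene minimum, and those without patch A, patch B or the keratinocyte-rich member were chosen after seeing the data. The fold call was run on simulated Poisson counts of pooled sets with known folds. These lack the spread between real spots, so the run does not test how that spread affects the calls. RefSeq sequences and coordinates are of GRCm38.p6. Python 3.11.15, numpy 2.4.6, scipy 1.17.1, pandas 2.3.3 and matplotlib 3.10.9 were used.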

Additional observations from a re-analysis of the deposited data

How the results depend on the processing

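No paired analysis was possible because each genotype is 1 section. The 59 spots became 33 with at least 5 UMIs of the choosing genes, 37 when chosen without Myh8, and 5 after thinning to 500 UMIs. The 554 genes higher than in the fast muscle spots became 364 in spots chosen without Myh8, 368 with striated muscle genes out of the denominator and 230 without patch A. Of the counts of higher genes over fast muscle spots, higher over other spots (540), lower than fast muscle spots (241) and lower than other spots (1563), thinning left 17, 129, 47 and 291. A minimum of 20 UMIs per gene gave 1607, 1026, 578 and 3307, and no minimum 4710, 2117, 2679 and 3813. Genes higher over the other spots were 913 with the receptor background taken off and 868 without patch A, and genes lower than in the fast muscle spots 409 without striated muscle genes in the denominator. Thinned spots leave fewer genes above the minimum, and the cause of the other shifts was not tested.

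The developmental list over fast muscle spots (log2 0.50) had a log2 ratio of 0.34 with at least 2 UMIs of the choosing genes, 0.64 with at least 5, 0.74 without Myh8, 0.37 against 50 fast muscle spots, 0.11 after thinning, 0.31 as a mean over spots, 0.18 without striated muscle genes in the denominator, 0.28 after centring on the median gene and 0.032 (-0.14 to 0.20) without patch A. Over the other spots (1.98) it had 2.11 with at least 5 UMIs, 2.18 without Myh8, 1.87 and 2.41 with 50 and 200 fast muscle spots, 1.64 thinned, 1.69 as a mean over spots, 2.10 without striated muscle genes, 2.11 centred, 2.10 with the background taken off, 1.70 with fast muscle spots among the other spots, 1.52 without patch A and 2.09 without patch B. With fast muscle spots among the other spots, Atp2a1 (-0.19) and Ttn (-0.071) turned in sign. The other 44 of 46 log2 ratios examined kept their sign in each alternative run. Mybph over the fast muscle spots was not among the 46, and without patch A it turned to -0.44. Myl4 ranged from 2.81 to 4.36 over fast muscle spots and from 2.75 to 4.50 over other spots, Tnc over fast muscle spots from 4.35 to 7.84 and the fibrillar collagens from 2.15 to 2.75.

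Depth limits what can be read in single spots: genes with a few UMIs, such as Pax7, Mymx or Myf5, cannot be ordered between the sets, and the 59 spots are deeper than both references. Counting intervals do not cover variation between mice or sections, for which there is 1 section per genotype.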
